A study of Mus musculus with 6 samples.

Results

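The genes described here are 10 members of 3 families of calcium-responsive or sugar-binding proteins: the S100 genes S100a4, S100a6, S100a10 and S100a11, the annexin genes Anxa1, Anxa2, Anxa5 and Anxa6, and the galectin genes Lgals1 and Lgals3. They were taken by exact gene symbol from a table of 27763 gene rows, and each of the 10 symbols matched a single row. Poly(A) RNA was sequenced from natural killer (NK) cells of the spleen, taken from wild type C57BL/6 mice aged 6 weeks, in 3 libraries of the group cNK and 3 of the group DN NK. Strain, age, genotype and tissue are the same in all 6 libraries, and no treatment is named. The labels spell out neither group name nor the surface markers used for sorting, and the series title speaks of an immature NK subset resident in the spleen that matures under control of T-bet. Nothing in the labels ties each library to its own mouse, and the p-values therefore describe the scatter among these libraries, part of which may be technical.

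S100 proteins are small EF-hand proteins that change shape on binding calcium and then bind target proteins, many of them parts of the cytoskeleton. Annexins bind membranes that carry acidic phospholipids, also in answer to calcium, and take part in vesicle traffic and membrane repair. Members of these 2 families form complexes, of which S100a10 with annexin A2 and S100a11 with annexin A1 are the best known. Galectins bind beta-galactoside sugars on glycoproteins, inside cells and outside them, and galectin-1 is known for its action on lymphocyte survival and adhesion.

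The libraries held 79798234 to 89526647 estimated counts each, where 1 read pair was worth about 3.7 estimated counts. Levels are given as FPKM, fragments scaled by length and library size. For most of the genes described here, estimated counts divided by FPKM follow the combined exon length of the gene. That length can exceed the length of any single transcript where a gene has several. Order, ranks, shares and ratios between genes therefore depend on this scaling, and its part in them was not tested. Folds, standard errors (SE) and adjusted p come from the quasi-likelihood test of edgeR, run on estimated counts as DN NK over cNK, with Benjamini-Hochberg adjustment over the 11690 rows that reached 1 FPKM in 3 or more libraries. The threshold was an adjusted p of 0.05. NK marker genes were present in both groups: all 12 of a list reached a mean of 1 FPKM in each, among them Ncr1 (NKp46), Klrb1c (NK1.1), Tbx21 (T-bet) and Eomes. They were themselves lower in DN NK in 11 of 12 cases, with a median log2 fold change of -1.08. Over all tested rows 30.9% were lower and the median was -0.02. The NK markers thus moved with most of the genes below, and their part in those results was not tested.

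In DN NK cells 9 of the 10 genes were lower than in cNK cells and 1, S100a4, was higher. All 10 had at least 1 FPKM in every library, so each entered the test regardless of the group, and none of the 10 had overlapping values between cNK and DN NK. Such a call is common in these data, and the 10 genes were chosen with earlier results of these data known. Of the tested rows, 61.7% passed in either direction, 30.9% were lower, 30.8% were higher, and 70.3% showed no overlap of the groups. The median log2 fold change of the 10 genes was -1.33, against -0.02 over all tested rows. The sizes set most of them apart more than the calls do: 7 of the 10 were at least 2-fold lower, a call that 4.69% of all rows met, while S100a4 was among the 7.9% that were at least 2-fold higher. In bulk RNA, fewer cells of a type and less RNA per cell cannot be told apart.

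**Figure D1:**
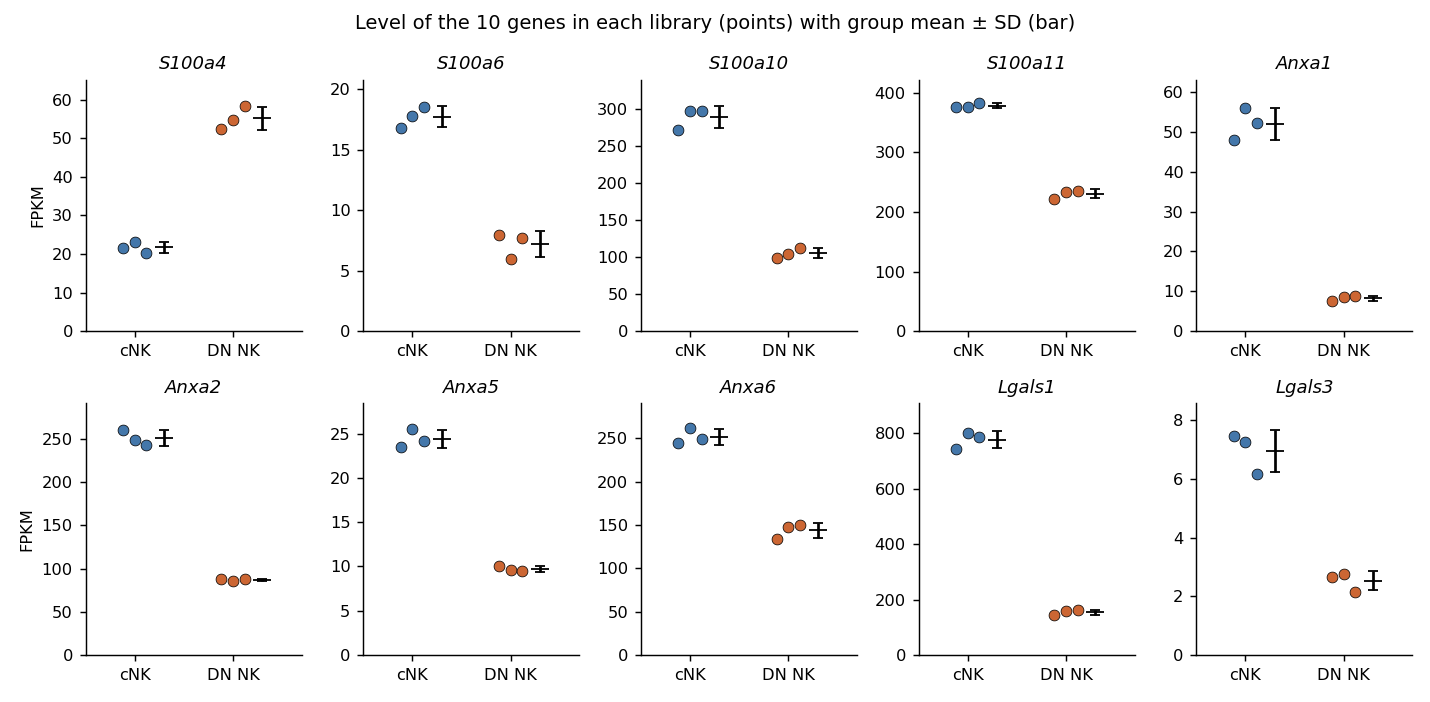
FPKM (y axis, linear from 0) of each of the 10 genes in the 3 cNK libraries (blue points) and the 3 DN NK libraries (orange points), with the group mean ± SD beside them. S100a4 is the panel in which DN NK lies above cNK, and no panel shows an overlap.

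By FPKM as deposited, Lgals1 led in cNK at 776 ± 31.1 FPKM, followed by S100a11, S100a10, Anxa6 and Anxa2 between 251 and 379 FPKM. Anxa1 stood at 52.0 ± 3.95 FPKM, and Anxa5, S100a4, S100a6 and Lgals3 lay between 6.96 and 24.4 FPKM (means and SD, n = 3 libraries). Anxa2 and Anxa6, neighbours in this order, had overlapping values. In DN NK the order was S100a11, Lgals1, Anxa6, S100a10, Anxa2, S100a4, Anxa5, Anxa1, S100a6 and Lgals3. There the values of Lgals1 overlapped those of Anxa6, and those of Anxa1 overlapped those of S100a6. In rank among the tested rows of a library, Lgals1 moved from between place 56 and 65 in cNK to between 304 and 331 in DN NK, and Anxa1 from between 855 and 985 to between 4890 and 5306. S100a4 moved the other way, from between 2111 and 2397 to between 785 and 873.

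The S100 genes were the family that split. S100a4, whose protein binds non-muscle myosin heavy chain and is linked to cell motility, stood at 21.7, 23.0 and 20.4 FPKM in cNK replicates 1, 2 and 3. In DN NK replicates 1, 2 and 3 it stood at 52.5, 54.7 and 58.4 FPKM. Every DN NK library was more than 2 times every cNK library, and S100a4 was 2.65-fold higher, a log2 fold change of 1.41 with an SE of 0.07 (adjusted p = 1.79e-06). S100a6, which encodes calcyclin, was at 16.8, 17.8 and 18.6 FPKM in cNK and at 7.92, 5.93 and 7.70 FPKM in DN NK. It fell 2.36-fold (log2 fold change -1.24, SE 0.12, adjusted p = 3.49e-05), with the widest relative spread of the 10 in DN NK (15.1% of the mean). The ratio of S100a4 to S100a6 levels was 1.23 ± 0.112 in cNK and 7.81 ± 1.31 in DN NK, where an exact 2-sided permutation test gave p = 0.1, the smallest that 3 against 3 libraries allow.

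S100a4 and S100a6 follow each other among the listed genes of the main S100 gene cluster, both on the plus strand. S100a5 is not listed, so whether it lies between them cannot be judged here. On GRCm38, the build in the submitters' notes, and over the span of the whole gene, S100a4 (ENSMUSG00000001020) lies on chromosome 3 from 90603771 to 90606045 and S100a6 (ENSMUSG00000001025) from 90612882 to 90624181. The gap between them is 6.84 kb. Since they moved in opposite directions, the 250 bases before the RefSeq start of each are shown, with those of S100a11 from the other S100 block, as RefSeq gives them on GRCm38.p6. The RefSeq start can differ from the deposited one: the last 12 bases of the S100a6 window and the last 8 of the S100a11 window lie inside the deposited gene span. Each is written 5′ to 3′ on the plus strand, and capitals mark matches to 5 short motifs searched on both strands: the TATA box (TATAAA), the GC box (GGGCGG), the AP-1 site (TGANTCA), a T-box site (TCACACC) and the Runx site (TGTGGT).
S100a4, chr3:90603520-90603769, plus strand: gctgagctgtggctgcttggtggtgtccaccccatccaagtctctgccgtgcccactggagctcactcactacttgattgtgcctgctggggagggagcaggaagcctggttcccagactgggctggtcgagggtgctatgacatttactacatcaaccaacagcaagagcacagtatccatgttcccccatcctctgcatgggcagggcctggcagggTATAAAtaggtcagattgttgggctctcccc
S100a6, chr3:90612644-90612893, plus strand: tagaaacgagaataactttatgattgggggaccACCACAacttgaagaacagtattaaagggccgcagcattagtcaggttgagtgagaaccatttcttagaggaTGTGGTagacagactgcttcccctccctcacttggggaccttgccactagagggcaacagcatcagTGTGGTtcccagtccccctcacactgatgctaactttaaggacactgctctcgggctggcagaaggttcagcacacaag
S100a11, chr3:93520246-93520495, plus strand: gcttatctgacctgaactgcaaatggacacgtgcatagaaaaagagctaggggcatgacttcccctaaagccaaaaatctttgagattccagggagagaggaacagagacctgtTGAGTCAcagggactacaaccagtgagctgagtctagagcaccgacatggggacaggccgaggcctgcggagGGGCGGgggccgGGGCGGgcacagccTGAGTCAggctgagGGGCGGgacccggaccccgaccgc
The S100a4 window held a TATA box that begins 31 bases before the start, and none of the other motifs. The S100a6 window held no TATA box and 3 Runx sites, which begin 217, 145 and 79 bases before the start. The S100a11 window held 3 GC boxes and 2 AP-1 sites. Over 32851 such windows, 12.4% hold the TATA box, 32.7% the GC box, 6.75% the AP-1 site and 3.33% the T-box site, and 4614 of them hold the Runx site. Of the 10 genes 7 had an entry. Of these, 3 held a TATA box, 3 a GC box, 2 an AP-1 site, 1 a Runx site and 0 the T-box site. In the windows not shown, all 250 bases for Anxa1, 63 for Anxa2, 47 for Lgals3 and 7 for Anxa5 lie in annotated exons of the gene. Matches counted there need not lie before every annotated start. A match of letters is a description of the window and not a binding site.

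Around S100a4 the S100 cluster moved unevenly. S100a1 and S100a13, which lie 92.7 and 89.3 kb before S100a4, fell 2.08-fold and 1.69-fold, S100a1 from 18.1 ± 0.772 to 8.33 ± 0.109 FPKM and S100a13 from 65.2 ± 3.32 to 37.0 ± 2.67 FPKM. S100a14, S100a3, S100a2, S100a7a, S100a8 and S100a9, which also lie in the cluster, were below 1 FPKM in all libraries. S100a8 and S100a9, the calgranulin genes of neutrophils, were listed at 0 in all cNK libraries and at up to 0.309 FPKM in DN NK. Within 100 kb on either side of the cluster, 4 other genes were tested, of which Ints3 and Snapin fell, Ilf2 rose and Chtop did not pass. So S100a4 was the 1 of 4 tested S100 genes of this cluster that rose.

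**Figure D2:**
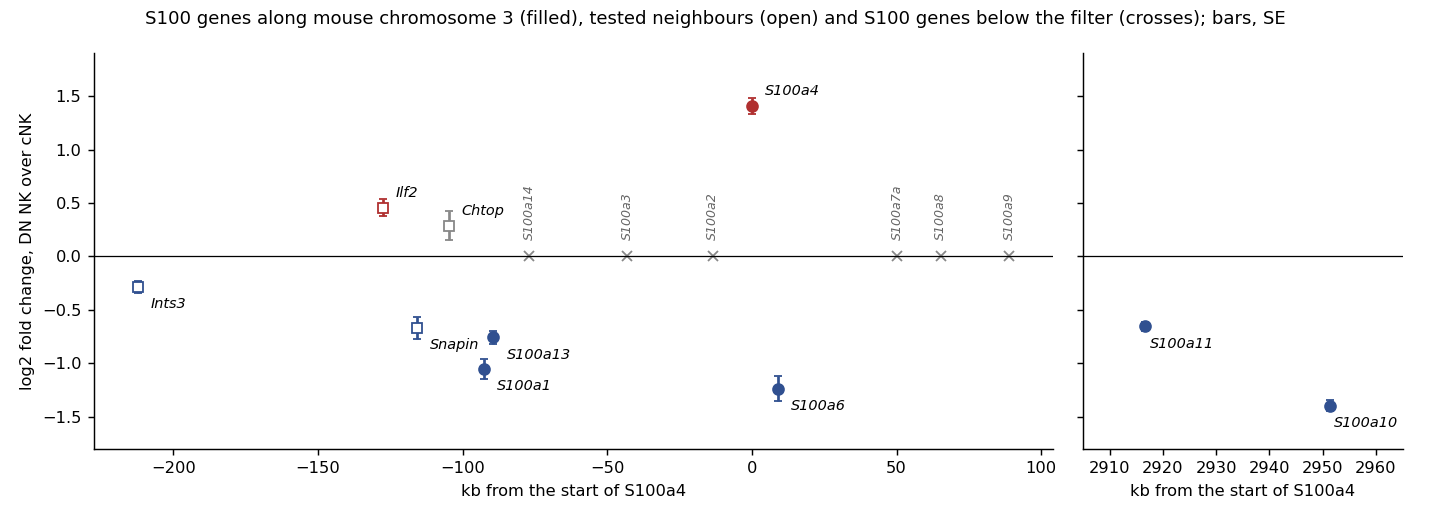
Log2 fold change of DN NK over cNK (y axis, points with SE bars) against distance in kb from the start of S100a4 on chromosome 3 (x axis), in 2 windows; filled circles are S100 genes, open squares other tested genes (red higher, blue lower, grey not past the threshold), and crosses on the zero line mark only the place of S100 genes below the filter. S100a4 stands at 1.41 with S100a6 at -1.24 beside it, and a low gene model past the right edge (Gm5541) is not drawn.

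The other S100 block lies 2917 kb further along chromosome 3 and holds S100a11 (ENSMUSG00000027907, 93520488 to 93526287) and S100a10 (ENSMUSG00000041959, 93555080 to 93564643), 28.8 kb apart on the plus strand. S100a10, the light chain of the annexin A2 complex, was at 272, 298 and 297 FPKM in cNK and at 98.7, 105 and 112 FPKM in DN NK. The lowest cNK library was more than 2 times the highest DN NK library, and S100a10 fell 2.63-fold (log2 fold change -1.40, SE 0.05, adjusted p = 3.81e-07). S100a11, the partner of annexin A1, was at 376, 377 and 383 FPKM in cNK and at 222, 234 and 236 FPKM in DN NK. It fell 1.58-fold (log2 fold change -0.66, SE 0.04, adjusted p = 3.96e-06), the smallest change among the 10 genes. S100a11 shares sequence with other rows: of its distinct 50-base stretches, 41.1% also occur in transcripts of another gene, the processed pseudogenes Gm12854 and Gm7665, so single values of this row are uncertain. Added together, the 3 rows were at 441 ± 9.01 FPKM in cNK and 278 ± 6.15 FPKM in DN NK, a ratio of 1.59. S100a4 shares 47.4% of its stretches with Gm42674, an overlapping gene model on the same strand, which was at 0.719 FPKM in cNK and 0.626 FPKM in DN NK and changes the sum little.

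As a group the 4 S100 genes summed to 707 ± 18.1 FPKM in cNK and 398 ± 16.6 FPKM in DN NK. S100a4 made up 3.07% ± 0.209 of that sum in cNK and 13.9% ± 0.211 in DN NK. The share of S100a10 was 40.9% ± 1.12 in cNK and 26.4% ± 0.623 in DN NK, and that of S100a11 was 53.6% ± 1.12 and 57.9% ± 0.863. Each of these shares, and that of S100a6, separated the groups without overlap, at the smallest p an exact permutation test of this size allows (p = 0.1, adjusted p = 0.111 over the 10 shares of the 3 families).

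**Figure D3:**
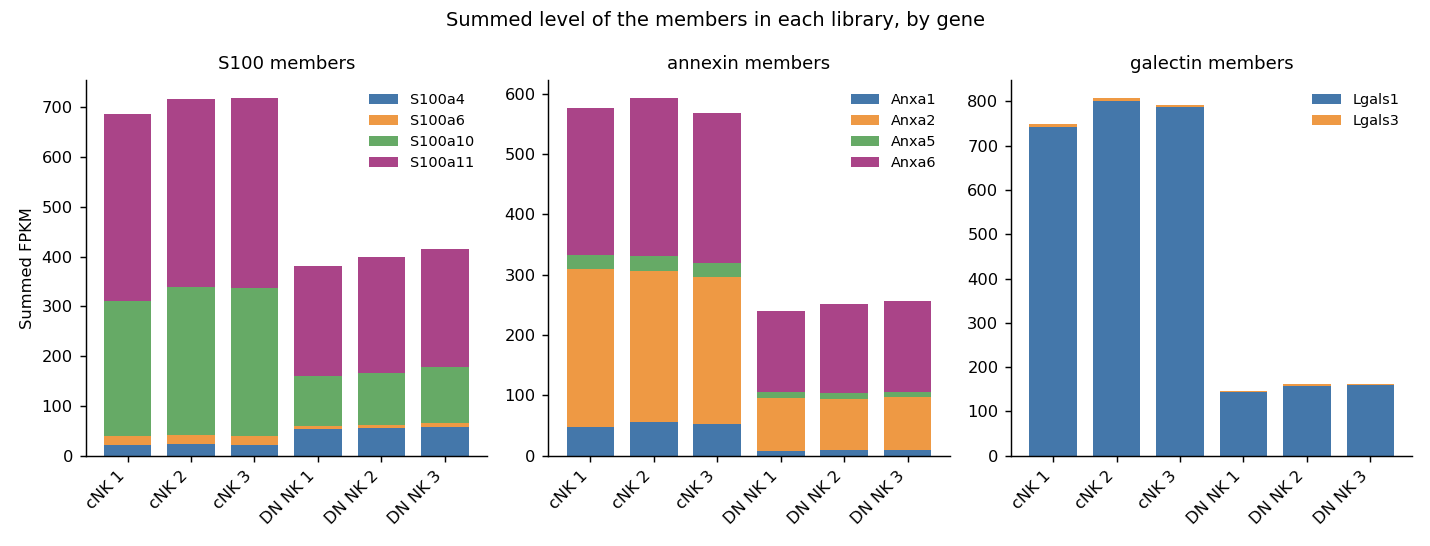
Summed FPKM (y axis, stacked from 0) of the S100, annexin and galectin members in each of the 6 libraries (x axis), coloured by gene. The S100 stack falls from 707 to 398 FPKM on average while its S100a4 layer widens, and the galectin stack is almost wholly Lgals1.

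All 4 annexin members fell, by different amounts, and their summed level went from 580 ± 12.6 to 249 ± 8.51 FPKM. Anxa1, which encodes an inhibitor of inflammation that also acts outside the cell through formyl peptide receptors, was at 48.0, 55.9 and 52.1 FPKM in cNK and at 7.59, 8.56 and 8.71 FPKM in DN NK. It fell 6.01-fold (log2 fold change -2.59, SE 0.07, adjusted p = 9.59e-08), the largest change of the 10 genes. Only 0.282% of all tested rows had a lower log2 fold change. The Anxa1 gene (ENSMUSG00000024659) is a minus-strand gene of chromosome 19, between 20373428 and 20390944. The receptor genes Fpr1 and Fpr2 were at or near 0 in every library, with 0.0943 FPKM as the highest value.

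Anxa2 (ENSMUSG00000032231, chromosome 9 from 69453620 to 69491795, plus strand) encodes the membrane-binding partner of S100a10. It was at 261, 249 and 243 FPKM in cNK and at 87.5, 85.5 and 87.7 FPKM in DN NK. The DN NK values varied by 1.37% of their mean, the least of the 10 genes in that group. Anxa2 fell 2.77-fold (log2 fold change -1.47, SE 0.05, adjusted p = 2.28e-07). Anxa2 and S100a10 thus fell by amounts whose 95% intervals overlap, -1.59 to -1.35 for Anxa2 and -1.52 to -1.27 for S100a10. The ratio of S100a10 to Anxa2 levels was 1.15 ± 0.0981 in cNK and 1.21 ± 0.0775 in DN NK. Its values overlapped between the groups, and a difference was not detectable (exact 2-sided permutation test, p = 0.5). S100a11 and Anxa1, the other known partners, fell by 0.66 and 2.59 on the log2 scale, with intervals of -0.75 to -0.56 and -2.75 to -2.42 that lie far apart. An antisense gene, Gm16144, shares 2.63% of the exon bases of Anxa2, and the library kit does not mark the strand.

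Anxa5 and Anxa6 completed the annexin members. Anxa5 (ENSMUSG00000027712, chromosome 3 from 36448923 to 36475894, minus strand), whose protein binds exposed phosphatidylserine, was at 23.6, 25.5 and 24.2 FPKM in cNK and at 10.1, 9.64 and 9.46 FPKM in DN NK. It fell 2.40-fold (log2 fold change -1.26, SE 0.06, adjusted p = 1.41e-06). Anxa6 (ENSMUSG00000018340, chromosome 11 from 54979108 to 55033445, minus strand), a larger annexin with a duplicated core, was at 244, 263 and 249 FPKM in cNK and at 134, 148 and 150.0 FPKM in DN NK. It fell 1.68-fold (log2 fold change -0.75, SE 0.05, adjusted p = 7.02e-06), the least of the 4 annexin members. With these unequal changes Anxa6 made up 43.5% ± 0.989 of the summed annexin members in cNK and 57.8% ± 1.52 in DN NK. Anxa1 went from 8.97% ± 0.575 to 3.32% ± 0.135, while the share of Anxa5 overlapped between the groups (exact permutation test, p = 0.2).

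The wider annexin family moved the same way. Of 8 other annexin genes, 6 were listed and 5 were tested, and all 5 were lower. Anxa8, Anxa4 and Anxa9 fell 6.88-fold, 3.61-fold and 2.53-fold. They reached 1 FPKM only in the cNK libraries, at means of 2.59, 1.89 and 1.09 FPKM, so the filter let them in only where cNK was high and their fall supports no count. Anxa7, which acts in vesicle fusion, and Anxa11, which links RNA granules to lysosomes, were above the filter in both groups and fell 1.63-fold and 1.26-fold. Anxa3 was below 0.05 FPKM in all libraries. Together with the 4 members, the 6 annexin genes that passed the filter in both groups were all lower. Among all tested rows 30.9% were lower, and these annexin genes were listed with earlier results of these data known.

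Both galectin members fell, from a summed 783 ± 30.8 to 157 ± 8.66 FPKM. Lgals1 (ENSMUSG00000068220, chromosome 15 from 78926725 to 78930465, plus strand) encodes galectin-1, a small secreted lectin with a single sugar-binding domain. It was at 742, 801 and 786 FPKM in cNK and at 144, 158 and 160.4 FPKM in DN NK. Lgals1 fell 4.83-fold (log2 fold change -2.27, SE 0.05, adjusted p = 3.88e-08). Its smallest cNK value was more than 4 times the largest DN NK value. Lgals3 (ENSMUSG00000050335, chromosome 14 from 47367751 to 47386160, plus strand) encodes galectin-3, which forms oligomers through its N-terminal tail. It was at 7.47, 7.26 and 6.15 FPKM in cNK and at 2.67, 2.76 and 2.16 FPKM in DN NK. It fell 2.62-fold (log2 fold change -1.39, SE 0.14, adjusted p = 4.50e-05), with the largest SE of the 10 genes at the lowest level. Lgals1 made up 99.1% of the summed level of these 2 genes in cNK and 98.4% in DN NK.

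The other galectin genes changed less. Lgals9, which encodes the tandem-repeat galectin-9, fell 1.55-fold from 66.6 ± 0.408 to 41.2 ± 2.40 FPKM, and Lgals8 fell 1.27-fold from 18.8 ± 0.860 to 14.1 ± 0.734 FPKM. Lgals4, with a log2 fold change of -0.23, was not past the threshold (adjusted p = 0.208). Lgalsl, a galectin-related gene, was 1.23-fold lower at an adjusted p of 0.0365 in edgeR. It did not pass without cNK replicate 2 (adjusted p = 0.101), without DN NK replicates 1, 2 or 3 (adjusted p of 0.0877 to 0.0931) or with a replicate block (adjusted p = 0.0506). Because Lgals9 and Lgals8 fell less than Lgals1, the share of Lgals1 in the sum over all listed galectin genes was 88.8% ± 0.336 in cNK and 71.2% ± 0.439 in DN NK.

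**Figure D4:**
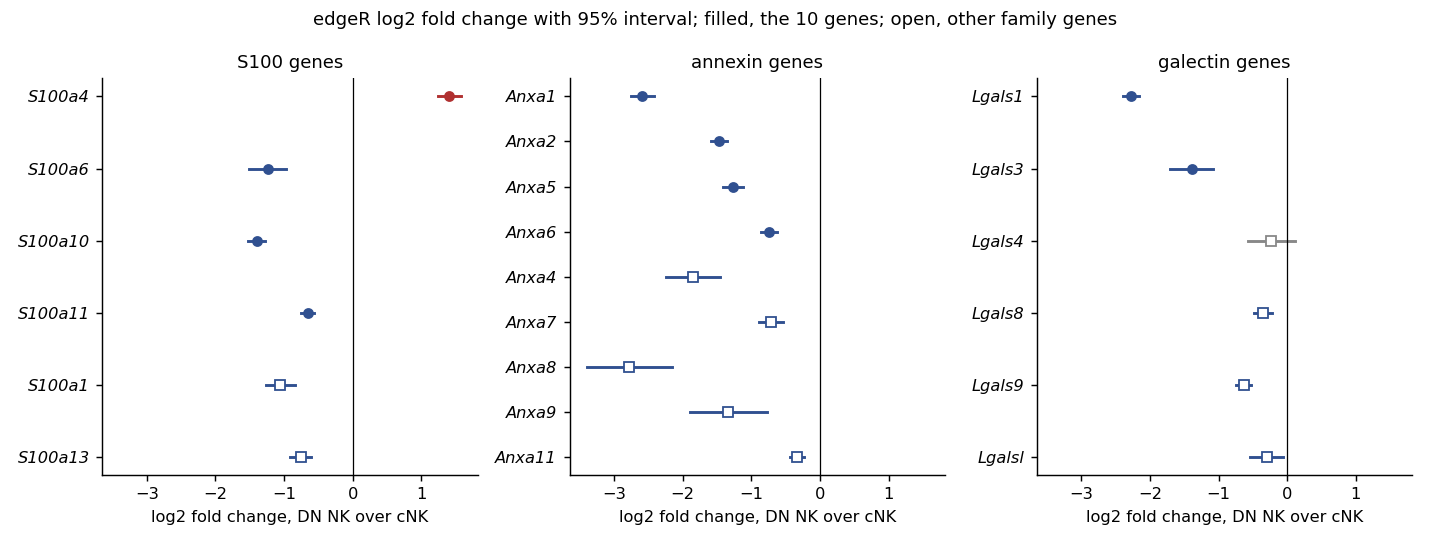
Log2 fold change of DN NK over cNK (x axis) with its 95% interval for the tested S100, annexin and galectin genes (y axis); filled circles are the 10 genes described, open squares other family genes, red higher, blue lower and grey not past the threshold. S100a4 is the only red point, and the intervals of all others except Lgals4 lie below 0.

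Counted over the 3 families outside the 10 genes, 11 genes were tested. They were listed with earlier results of these data known, so their counts against the background are descriptive. Anxa4, Anxa8 and Anxa9 entered only through cNK and were bound to be lower. Of the other 8, 7 were lower and 0 higher by edgeR, where 30.9% of all rows were lower. At an unadjusted p of 0.05, 0 were higher as well, and DESeq2 and limma also gave 0 higher. With those 3 included the count of lower genes was 10, and it was 6 without cNK replicate 2 and 7 without cNK replicate 1 or 3. There Anxa4, Anxa8 and Anxa9 no longer reached the filter. It was also 6 with a mean of at least 5 FPKM required.

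Genes of known partners, receptors and glycan ligands went both ways. Of 25 on the list, 17 were tested, 9 fell, 6 rose and 2 did not pass, with a median log2 fold change of -0.19. Over all rows 30.9% fell and 30.8% rose, and the share of partners that rose is close to that background. Ahnak, the giant scaffold that binds the S100a10 and annexin A2 complex, fell by 0.77 on the log2 scale, from 174 ± 6.84 to 98.1 ± 5.96 FPKM. Myh9, the myosin heavy chain bound by S100a4, fell 1.32-fold. Itgb1, the integrin beta-1 chain, fell 2.66-fold, and Spn, which encodes the galectin-1 ligand CD43, fell 2.98-fold from 98.2 ± 12.7 to 31.6 ± 6.26 FPKM. Ptprc, the gene of the galectin-binding phosphatase CD45, fell 1.24-fold. Cd7, another galectin-1 receptor gene and the most abundant of the list, rose 3.06-fold to 793 ± 34.6 FPKM. Lag3, an inhibitory receptor to which galectin-3 binds, rose 9.41-fold from 2.05 ± 0.462 to 18.5 ± 1.47 FPKM. Mgat5, whose enzyme builds the branched N-glycans that galectins bind, rose 1.46-fold from 13.9 ± 0.681 to 19.4 ± 0.305 FPKM. Havcr2, a receptor for galectin-9, was at 0.140 FPKM or less in all libraries, and Cd44 was not past the threshold at a log2 fold change of 0.06. The count of lower partner genes ranged from 7 to 11 over the alternatives, and Plg, one of the higher genes, reached the filter only through DN NK.

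Actin and membrane scaffold genes, many of which encode structures that S100 and annexin proteins bind, were mostly lower. All 20 on the list were tested, 16 fell, 0 rose and 4 did not pass. Over all rows 30.9% fell and 61.7% passed in either direction. The list was chosen with earlier results of these data known, so its count against this background is descriptive. The median log2 fold change was -0.60 against -0.02 over all rows. At an unadjusted p of 0.05, 0 rose as well, limma and DESeq2 gave 16 lower and 0 higher, and without cNK replicate 1 the ezrin gene Ezr was higher (adjusted p = 0.0147). Vim, the vimentin gene, fell 4.29-fold from 114 ± 3.20 to 25.5 ± 1.25 FPKM. Log2 fold changes were -1.46 for Emp3, a membrane protein gene, and -1.43 for Flna, which encodes the actin crosslinker filamin A. Tmsb4x, the actin-sequestering thymosin beta-4 gene and the most abundant of the list, fell 1.72-fold. Capg, Cotl1, Tmsb10 and Ezr were not past the threshold, at log2 fold changes of 0.05, 0.04, 0.09 and 0.13.

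**Figure D5:**
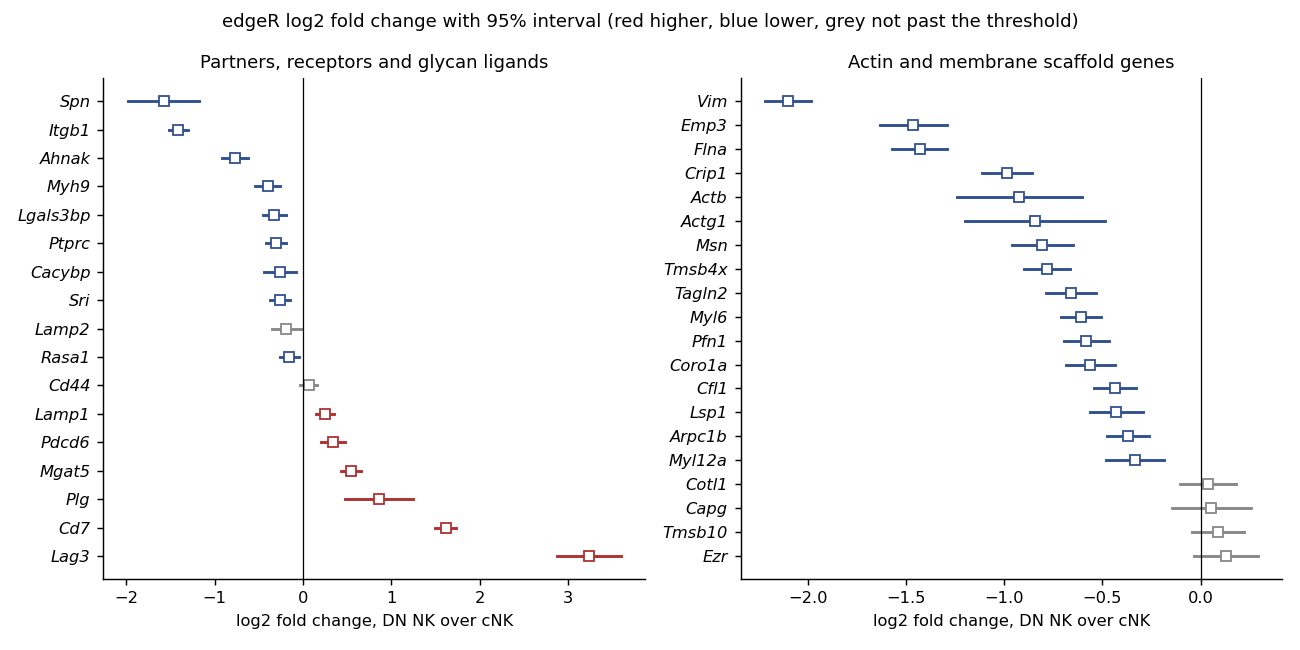
Log2 fold change of DN NK over cNK (x axis) with its 95% interval for the tested partner and ligand genes (left) and the actin and membrane scaffold genes (right), ordered by size; red is higher, blue lower and grey not past the threshold. The partners spread from Spn at -1.58 to Lag3 at 3.23, while the scaffold genes run from Vim at -2.10 to Ezr at 0.13.

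Markers of other cell types were examined, since macrophages, neutrophils and other lymphocytes also make S100, annexin and galectin transcripts. Of 15 monocyte and macrophage markers, 2 (Ly6c2 and Cd68) reached a mean of 1 FPKM in each group. The list summed to 42.4 to 47.7 FPKM in cNK and 21.9 to 24.7 FPKM in DN NK. Most of that sum was Ly6c2, at 37.1 ± 2.17 FPKM in cNK and 15.8 ± 1.07 FPKM in DN NK. Cd68 was not past the threshold in edgeR (adjusted p = 0.201). The defining markers Csf1r, Adgre1 and Cd14 were at 0.223 FPKM or less in every library. Of 12 neutrophil markers 6 were listed, all at 0 in cNK and summing to 0.151 to 0.682 FPKM in DN NK. B cell markers summed to 2.74 to 3.24 FPKM in cNK and 43.2 to 57.9 FPKM in DN NK, where 9 of 12 reached 1 FPKM, and all 9 tested were higher, most of which reached the filter only through DN NK. T cell markers summed to 85.9 to 100.4 FPKM in cNK and 186 to 189.9 FPKM in DN NK, where 7 of 12 reached 1 FPKM, and all 7 tested were higher. Of these, Cd4 and Bcl11b reached the filter only through DN NK and were bound to be higher. Cd28 led the sum, at 65.8 ± 7.17 FPKM in cNK and 97.3 ± 1.33 FPKM in DN NK. Cd3d went from 4.54 ± 0.358 to 38.5 ± 0.873 FPKM, Cd3g from 3.39 ± 0.133 to 17.3 ± 0.750 FPKM and Cd4 from 0.0160 ± 0.0202 to 3.51 ± 0.290 FPKM. Cd3e, below the filter, was at 0.0218 ± 0.0214 and 0.846 ± 0.122 FPKM. Erythroid markers summed to 46.4 to 54.1 FPKM in cNK and 57.8 to 76.2 FPKM in DN NK, with 4 of 5 tested higher. For these counts of markers, the background over all tested rows was 30.8% higher and 61.7% past the threshold in either direction. The other lists summed, in cNK and DN NK, to 204 to 215 and 167 to 173 FPKM for dendritic cell markers, to at most 12.2 and 15.7 FPKM for stroma and endothelium markers, and to at most 2.84 and 2.08 FPKM for platelet markers. The dendritic sum is led by Itgax, which was lower, while the other 4 tested dendritic markers, Batf3, Zbtb46, Ccr7 and Bst2, were higher, Batf3 from 0.277 ± 0.0996 to 6.72 ± 0.633 FPKM. The tested B and T cell markers, and 4 of 5 each of the tested dendritic and erythroid markers, moved in the same direction as S100a4. For most of the B cell markers, and for Cd4, Bcl11b and Batf3, that direction was fixed by the filter. The part of all these markers in the rise of S100a4 and in the lower levels of the other 9 genes was not tested.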

How the data were processed

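The deposited table holds, for each of 27763 gene rows and each of the 6 libraries, an estimated count and an FPKM value. The submitters' processing notes name HISAT, StringTie and edgeR and the mouse build GRCm38 (mm10), and versions and settings are not given in the sources used here. The estimated counts, as the authors deposited them, equal FPKM times length and a constant, rounded up, in 89.3% to 91.3% of the values of 30 or less in rows with a single transcript, so that 1 read pair is worth about 3.7 counts. The FPKM values were used as the authors deposited them, for levels, shares and ratios, and were not rescaled by transcript length. The library kit does not mark strand.

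Estimated counts were tested as whole numbers with edgeR 4.0.16 (TMM scaling, quasi-likelihood test, Benjamini-Hochberg adjustment over the 11690 rows that reached 1 FPKM in 3 or more libraries) in R 4.3.3, and the script was tested on simulated data. DESeq2 1.42.0, limma 3.58.1 on log2(FPKM + 1), other scalings and filters, a replicate block and leaving out each library were alternatives. Shares and ratios were tested with exact 2-sided permutation tests. Promoter windows and motif shares come from RefSeq (GRCm38.p6), where 7 of the 10 genes had an entry, and S100a10, Anxa6 and Lgals1 had none. Shared 50-base stretches were counted in GENCODE M21 transcripts. No sample or column was left out.

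The 10 genes and the lists of other family genes, partners, scaffold genes and cell type markers were chosen with earlier results of these data known. The rule for named genes gave full values for the 10 genes, and, for each other list, statistics for its most abundant gene and for up to 3 past the threshold, taken by size of change. Values of other listed genes, such as Anxa7, Itgb1, Ahnak, Myh9, Ptprc and Mgat5, were added after they were seen.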

Additional observations from a re-analysis of the deposited data

How the results depend on the processing

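All 10 genes kept their direction and call in every alternative that tested them, with a highest adjusted p of 0.000317 (S100a6 in edgeR without cNK replicate 3). Lgals3 was not tested with a mean of at least 5 FPKM required, which left 2278 rows higher and 2336 lower over all genes, and 6 other family genes lower. With no filter 1 other family gene, S100a9, was higher. Leaving out 1 library gave 6 to 9 lower other family genes and 0 to 1 higher scaffold genes. When shares were taken of the whole family, the differences between DN NK and cNK were 9.69 percentage points for S100a4, -12.8 for S100a10, 11.9 for Anxa6, -17.6 for Lgals1 and 0.378 for Lgals3, since the other family genes enter the sum. Same-numbered libraries had correlated deviations of 0.106, 0.0906 and 0.152, and each library correlated best with its own number, but the labels give the number no meaning, so they were not treated as pairs. With a replicate block 7222 rows passed against 7215 without, and the 10 genes gave 1 higher and 9 lower, while Lgalsl was lost (adjusted p = 0.0506) and no other call changed among the family, partner and scaffold genes; the cell type markers were not refitted with the block. Precision was lowest for Lgals3, the gene with the lowest level, and how reads were assigned between S100a11 and its pseudogenes is not given in the sources used here.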
